A study of Mus musculus with 3 samples.

Results

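Ileal Fgf15-positive cells were the ileal barcodes with 800 to 50000 UMIs (counted RNA molecules), at most 40% mitochondrial UMIs, no Ptprc UMI, at least 1 Epcam UMI and at least 2 Fgf15 UMIs. Ptprc, the leukocyte antigen CD45, and Epcam, an epithelial adhesion molecule, were used to narrow the comparison to the epithelium. They did not remove all barcodes with immune cell RNA. The members were thus chosen by measured UMIs of Fgf15, Epcam and Ptprc alone. The rule found 1651 cells, which were 29.3% (95% binomial interval 28.1 to 30.5) of the 5637 Epcam-positive, Ptprc-negative ileal cells within the same limits. They came from 9595 ileal barcodes and 27235 barcodes in all. The comparison group was the 3217 ileal cells inside these limits with no Fgf15 UMI, called Fgf15-negative, and the remaining 769 cells held exactly 1 Fgf15 UMI.

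The study profiled the epithelium of the small intestine in C57BL/6N wildtype male mice aged 12 weeks, with no treatment named in the labels. Cells of 3 mice were pooled before sequencing, and the duodenum, the jejunum and the ileum each gave 1 library made by the droplet method of 10x Genomics. The suspension was detached with EDTA, so it holds intestinal epithelial cells (IECs) and intraepithelial immune cells, and live cells were sorted as negative for propidium iodide. With 1 library per segment there is no replicate error and no test could be made: every interval below is a 95% interval for counting error only, and the mouse a cell came from is not known.

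Fgf15 is a hormone of the enterocyte, the absorptive cell of the villus. Bile acids enter ileal enterocytes through the apical transporter Slc10a2, are carried by the binding protein Fabp6 and leave through the basolateral pair Slc51a and Slc51b. Inside the cell they activate the nuclear receptor FXR, encoded by Nr1h4, which switches on Fgf15, and the hormone travels to the liver to restrain bile acid synthesis. Enterocytes also change their gene programme as they move from the bottom of the villus to its tip.

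The ileal library held 78074516 UMIs, the jejunal 87656078 and the duodenal 98518847. Ileal and jejunal libraries shared 28 barcode sequences and ileal and duodenal libraries 20, of which 3 and 2 were Fgf15-positive cells. Fgf15-positive cells were somewhat deeper than Fgf15-negative cells, with a median of 7220 against 6249 UMIs. Their median share of mitochondrial UMIs was 13.8% against 11.1%, and that of ribosomal protein genes was 2.48% against 1.56%. The part of these differences in the results below was not tested, except where depth was held equal.

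Fgf15 (ENSMUSG00000031073, GRCm38 chr7:144896531-144900953, plus strand) chose the cells, so its values are a description. The 1651 cells held 11704 Fgf15 UMIs, with a median of 4 and a range of 2 to 92 per cell, or 6.66 Fgf15 UMIs per 10000 UMIs. Just inside the threshold lay 388 cells with exactly 2 UMIs at 2.28 per 10000, and just outside it the 769 cells with 1 UMI at 1.14 per 10000. A further 922 cells held 3 to 9 UMIs and 341 held 10 or more. The rule depended on depth, read in 6 groups by depth. Of the shallowest cells, with 800 to 1599 UMIs, 11.4% were Fgf15-positive, against 38.8% of the deepest, with up to 50000. The share did not rise at each step, at 30.1% from 3200 to 6399 UMIs and 26.4% from 6400 to 12799. The Fgf15 level was 4.32 per 10000 in the shallowest group and 1.99 in the deepest. When each cell was thinned to 800 UMIs, 46.0% (43.6 to 48.5) of the Fgf15-positive cells still held an Fgf15 UMI. Fgf15-negative cells can therefore include cells whose Fgf15 RNA was not counted. At the same depth the share with an Fgf15 UMI was 1.32% in goblet-like cells, with a median of 9206 UMIs before thinning, and 2.48% in Ptprc-positive barcodes, with a median of 4244, which serves as the background. Of these 2340 barcodes 784 held no Epcam UMI, and without thinning 2.93% of the 784 held an Fgf15 UMI, at 0.0947 per 10000, against 10.9% and 0.644 for all 2340.

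Fgf15 RNA was an ileal signal with a small jejunal tail. The same rule found 41 of 4002 jejunal cells (1.02%, 0.736 to 1.39) and 0 of 4001 duodenal cells, which allows a share of up to 0.0922%. Over all Epcam-positive, Ptprc-negative cells the level was 2.38 Fgf15 UMIs per 10000 in the ileum (2.34 to 2.42) and 0.0408 in the jejunum (0.0357 to 0.0464). The whole duodenal library held 0 Fgf15 UMIs. Fabp6 followed the ileum more strictly: Epcam-positive cells held 996022 Fabp6 UMIs in the ileum, 19 in the jejunum and 8 in the duodenum. Of the 19 jejunal Fabp6 UMIs, 1 lay in the 41 cells that passed the Fgf15 rule.

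The 3 genes given as marks of these cells did not mark them equally. Fabp6 (chr11:43596049-43601540, minus strand) reached 324 UMIs per 10000 in Fgf15-positive cells and 113 in Fgf15-negative cells, a ratio of 2.88 (2.87 to 2.89). Gm26917, a long noncoding RNA gene at chr17:39843013-39846341, was at 3.01 against 2.53 per 10000, a ratio of 1.19 (1.14 to 1.23). That ratio turned to 0.717 when villus position, read from the RNA of tip genes, was held equal in the way described below. It turned to 0.699 when cluster membership was held equal. Thinned to 800 UMIs, Gm26917 was found in 22.8% of Fgf15-positive and 15.9% of Fgf15-negative cells, and in 15.5% of Ptprc-positive barcodes. It was high in cells with the densest Fgf15, when the Fgf15-positive cells were split into 4 equal groups by Fgf15 per 10000 UMIs. It was at 8.48 per 10000 in group 4, the highest, and at 0.853 in group 1. Group 4 was also the shallowest, with a median of 4388 UMIs against 15581 in group 1.

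The genes that carry bile acids were higher in Fgf15-positive cells as a group. All 5 measured members of the bile acid transport list lay above 1, with a median ratio of 1.99, and 2 of them lay at least 2-fold higher, where 2.02% of the 2874 measured genes did. The median over all measured genes was a ratio of 1.04, and 56.5% of them lay above 1. A gene counted as measured when it reached 0.5 UMIs per 10000 in either group. Slc10a2 (chr8:5083219-5105351, minus strand), the apical uptake transporter, was at 5.10 against 2.92 per 10000, a ratio of 1.74 (1.69 to 1.80), but that ratio turned to 0.954 with villus position held equal and to 0.837 with depth held equal as well. Slc51a (chr16:32474504-32487879, minus strand) was at 13.0 against 5.52, a ratio of 2.35 (2.31 to 2.40), and its partner Slc51b (chr9:65412714-65422955, minus strand) at 8.57 against 4.31, a ratio of 1.99 (1.94 to 2.04). Abcc2, an apical export pump, was at 0.915 against 0.494 per 10000. Abcc3, a basolateral export pump, stayed under the minimum level and pointed the other way, at 0.0871 against 0.164, although its ratio was 1.71 inside the enterocyte-like clusters described below.

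**Figure D1:**
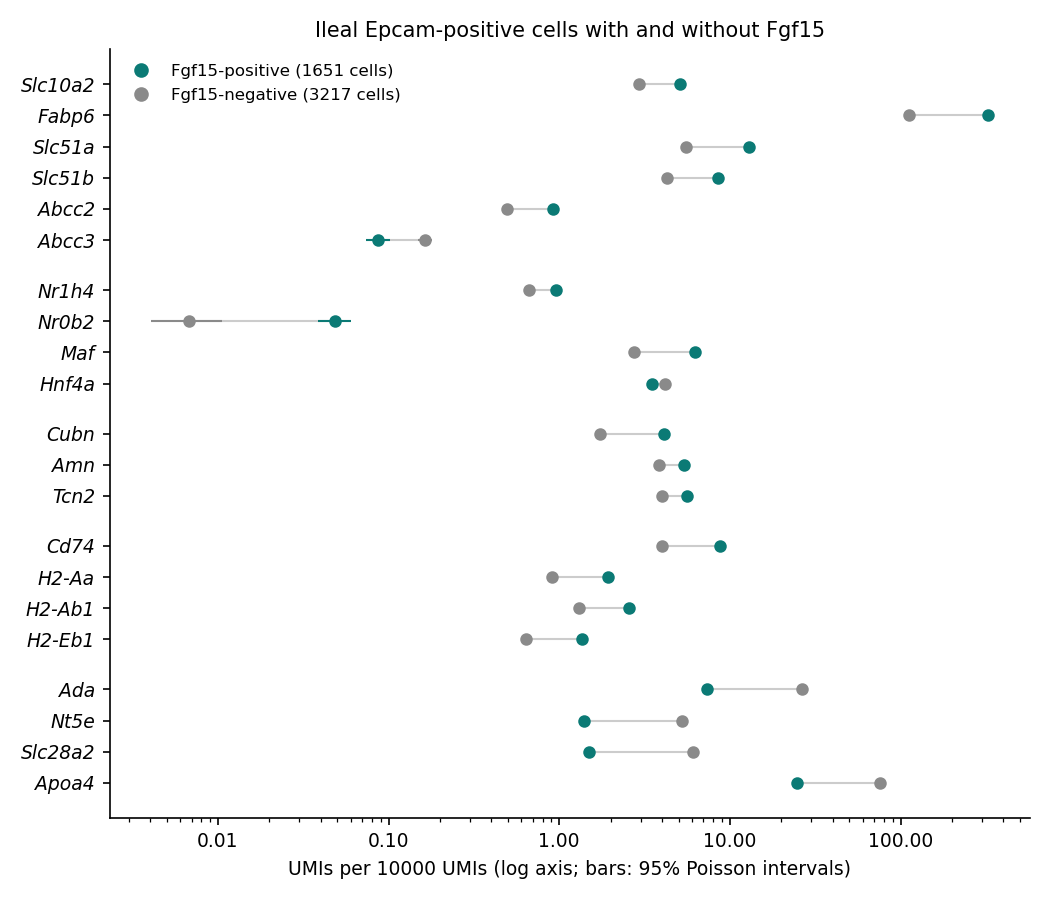
Levels of bile acid, vitamin B12, MHC class II and villus tip genes in 1651 Fgf15-positive (teal) and 3217 Fgf15-negative (grey) ileal cells, in UMIs per 10000 UMIs on a log axis, with bars for 95% Poisson intervals. Fabp6 sits highest, at 324 against 113, and the villus tip genes at the bottom lie the other way round, as for Ada at 7.30 against 26.5.

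Shares of cells were also higher in Fgf15-positive cells at equal depth. Thinned to 800 UMIs, Slc51a was found in 57.8% of Fgf15-positive and 28.3% of Fgf15-negative cells, with 10.1% in Ptprc-positive barcodes as background. Slc51b was found in 44.6% and 27.3%, with 6.75% as background. Slc10a2 was found in 26.6% and 15.7%, with 4.79% as background, and in 75.8% and 47.8% without thinning. Fabp6 was found in 94.9% and 70.3%, but also in 64.1% of Ptprc-positive barcodes and 52.4% of goblet-like cells. Only 784 of the 2340 Ptprc-positive barcodes held no Epcam UMI, so this background can include epithelial RNA. The shares of these genes were not computed for the 784 alone. Ptprc-positive barcodes held 54.8 Fabp6 UMIs per 10000, against 113 in Fgf15-negative cells. Read the other way, 38.1% of the 3283 cells with a Slc10a2 UMI were Fgf15-positive, against 17.0% of the 2354 cells without, but the former had a median of 7304 UMIs and the latter of 5464.

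The promoters of Fabp6, the highest of the bile acid transport genes, and of Slc51b are shown because they share a run of letters with inverted half-sites around a spacer base, the kind of site FXR is known to bind. For 6 bile acid genes (Fabp6, Slc51a, Slc51b, Slc10a2, Nr0b2 and Nr1h4) the longest run of letters shared by each of the 15 pairs, on either strand, was read from the RefSeq table of promoters for GRCm38.p6, which spans 250 bases before to 50 after each start. These runs were 8 to 11 letters long. Fabp6 and Slc51b shared GGTGAATGACC, which was held by 2 of 32851 promoters (0.00609%), those of these genes. The run was taken from these 2 promoters, so both hold it by construction and the count could not be lower. Whether FXR binds there was not tested. Fabp6 and Nr0b2 also shared a run of 11 letters, held by 11 promoters (0.0335%). The Fabp6 stretch is chr11:43601764-43601792 and the Slc51b stretch chr9:65422940-65422968, both on the minus strand, with the shared letters in capitals, which in Slc51b run in the reverse direction.
Fabp6: gagcagagaGGTGAATGACCacactctgt
Slc51b: cattcgtggGGTCATTCACCctggactgg
The letters end 210 bases before the RefSeq start of Fabp6 and 175 before that of Slc51b. The GENCODE gene whose position is given above starts 182 bases further upstream for Slc51b, so that its start lies within these letters, and 22 bases away for Fabp6. In these cells the levels of Fabp6 and Slc51b were 2.88 and 1.99 times those of Fgf15-negative cells. The other 4 windows did not hold these letters.

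Regulators of bile acid metabolism differed less than the transporters. Of 9 measured members, 7 lay above 1, where 56.5% of all measured genes did, and 1 at least 2-fold higher, with a median ratio of 1.31. That member was Maf (chr8:115682942-115707794, minus strand), a transcription factor of differentiated enterocytes, at 6.28 against 2.76 per 10000, a ratio of 2.28 (2.21 to 2.35). Nr1h4 itself was at 0.960 against 0.665, a ratio of 1.44 (1.35 to 1.54), which turned to 0.885 with villus position and to 0.876 with cluster membership held equal. Nr0b2, a repressor that FXR switches on, was rare, with 85 UMIs in Fgf15-positive and 19 in Fgf15-negative cells, a ratio of 7.15 (4.31 to 12.5). It stayed under the minimum level, and its ratio was at least 3.16 in each of the 18 alternative settings run in the ileum. Malrd1, a membrane protein known to raise Fgf15 output, was at a ratio of 1.34 and the vitamin D receptor Vdr at 1.31, and the xenobiotic receptor Nr1i2 was at 0.623 against 0.416 per 10000. The enterocyte factor Hnf4a was lower, at 3.50 against 4.18 per 10000.

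The receptor side of the hormone was near absent. Fgfr4 and its partner Klb, which form the FGF15 receptor of the liver, had 25 and 2 UMIs in all 1651 cells, or 0.0142 and 0.00114 per 10000, and 51 and 13 UMIs in the Fgf15-negative cells. Of the 7 genes of the list only Fgfbp1, a secreted FGF carrier, reached the minimum level, at 0.389 against 0.557 per 10000.

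Of 3 measured genes of vitamin B12 uptake, 1 lay at least 2-fold higher over all cells and 0 among the enterocyte-like cells described below, and the summed list was at a ratio of 1.57, or 1.07 with villus position held equal. Cubn, the receptor that takes up vitamin B12 with its intrinsic factor, was at 4.11 against 1.74 per 10000, a ratio of 2.37 (2.29 to 2.46). Its anchor Amn was at a ratio of 1.41 and the B12 carrier Tcn2 was at 5.59 against 3.99 per 10000. Rdh7, a retinol dehydrogenase, had the highest ratio of any gene that reached 1 UMI per 10000, at 1.09 against 0.288, a ratio of 3.80 (3.50 to 4.13). The arginase Arg2 followed at 2.58, the chloride and bicarbonate exchanger Slc26a3 at 2.56, the disaccharidase Sis at 2.33, the ketohexokinase Khk at 2.24 and the retinal dehydrogenase Aldh1a1 at 2.22. The remaining genes among the 15 highest were Gm42031 at 2.33, Tgfbi at 2.31, Cbr1 at 2.31, Exoc3l4 at 2.22 and Cd74 at 2.20. In all 58 genes lay at least 2-fold higher. Lipid handling differed little as a group: of 18 measured genes 1 lay at least 2-fold higher, Mogat2, a monoacylglycerol acyltransferase, at 2.02, and 1 lower, the apolipoprotein Apoa4. Of the fat oxidation genes 6 of 6 measured lay above 1, where 56.5% of all measured genes did, with Angptl4, a lipase inhibitor, at 2.94. Of the sterol synthesis genes 10 of 10 did, with none at least 2-fold higher and a median of 1.21, but their sum turned to a ratio of 0.935 with villus position held equal.

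The genes lowest in Fgf15-positive cells were those of other cell types, and 128 genes lay at least 2-fold lower, 4.45% of those measured. All 7 goblet cell genes lay at least 2-fold lower, as did 6 of 6 measured Paneth cell genes and 4 of 4 measured genes of B and plasma cells. The goblet list summed to 58.5 UMIs per 10000 in Fgf15-positive and 567 in Fgf15-negative cells, the Paneth list to 4.02 and 37.3, and the B and plasma cell list to 0.750 and 26.5. The hormones Gip and Pyy of the enteroendocrine cells (EECs) were at ratios of 0.00966 and 0.0887, and Olfm4, a stem cell gene, at 0.0791. Jchain and Igkc, antibody genes of plasma cells, were at 0.0213 and 0.0243, and Spink4 and Agr2 of goblet cells at 0.0618 and 0.0681. The others of the 15 lowest were Igha, Mptx2, Nts, AY761184, Klk1, Gm14851, Sct and Serpina1b, at 0.0374 to 0.0942. The Fgf15-negative group thus holds other cell types, and the comparison was repeated among enterocytes alone.

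Clusters of the 5637 cells, built without Fgf15, gave that comparison. Of 14 clusters, 7 were enterocyte-like by the enterocyte markers. They held 1447 of the Fgf15-positive cells, or 87.6% (86.0 to 89.2), and 2397 of the Fgf15-negative cells, or 74.5%. Median depths there were 6299 and 5864 UMIs, and the summed goblet list was 14.2 against 17.4 per 10000, the B and plasma cell list 0.832 against 0.877. Goblet-like cells were Fgf15-positive in 18 of 378 cases (4.76%), EEC-like cells in 3 of 81 and tuft-like cells in 1 of 42. A mixed cluster led by the stem cell gene Olfm4 and the Paneth cell gene Defa22 had 3 of 103. In a finer clustering, at resolution 1.2, a stem-like cluster had 1 of 92. A Paneth-like cluster had 3 of 15 there (20.0%, 4.33 to 48.1). The M-cell-like cluster, led by Gp2 and Ccl20, had 13 of 30 (43.3%, 25.5 to 62.6). An immune-like cluster led by the antibody genes Igkc, Igha and Jchain, with the T cell list highest, had 2 of 83. A cluster that stayed unnamed, led by Tstd1 and Reg3b and with a median of 23719 UMIs, held 164 Fgf15-positive cells of 389 (42.2%). These were 9.93% of all Fgf15-positive cells. Its highest list was that of stroma and endothelium, with 0 of those markers found in 10% of its cells. Its mean relative level of the enterocyte list was 0.239, against 0.321 to 0.833 in the enterocyte-like clusters. Fabp6 was at 383, Reg3b at 367 and Fgf15 at 2.91 per 10000 there. Its cells are left out of every enterocyte-like comparison and of the tip groups below.

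**Figure D2:**
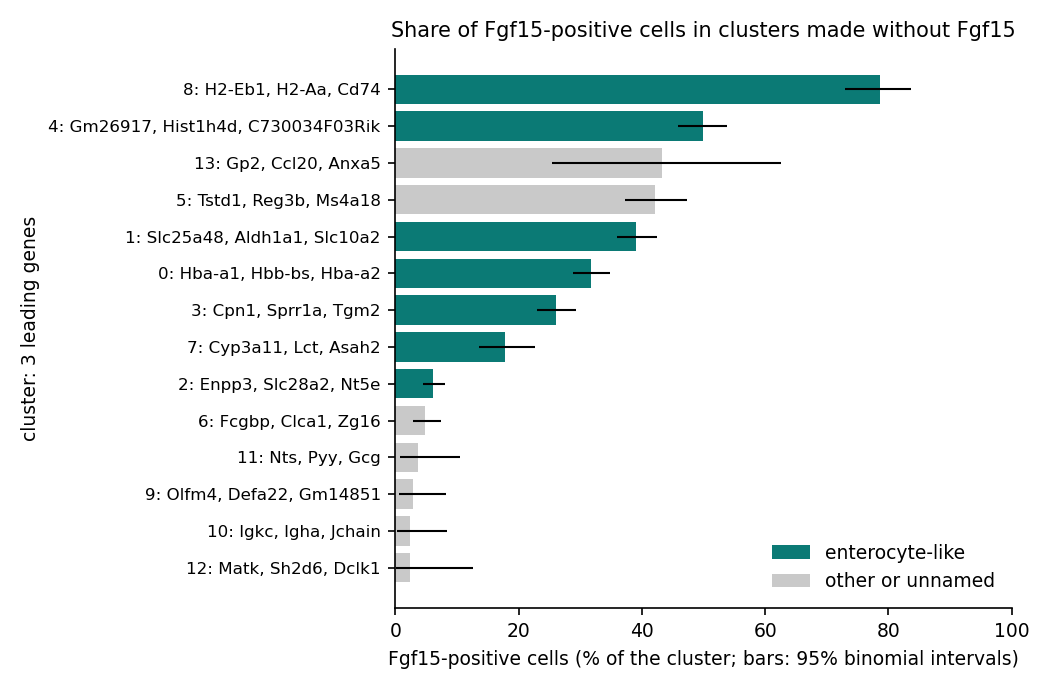
Share of Fgf15-positive cells in each of 14 clusters of ileal Epcam-positive, Ptprc-negative cells, in percent, with bars for 95% binomial intervals. Teal clusters were enterocyte-like, and they span from 78.7% in the cluster led by MHC class II genes to 6.09% in the cluster led by Enpp3, Slc28a2 and Nt5e.

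Among enterocyte-like clusters the share of Fgf15-positive cells varied more than 10-fold. It was 188 of 239 cells (78.7%, 72.9 to 83.7) in cluster 8, led by the MHC class II genes H2-Eb1, H2-Aa, Cd74 and H2-Ab1, at 9.53 Fgf15 UMIs per 10000. It was 318 of 638 (49.8%) in cluster 4, led by Gm26917, at 8.34 per 10000. Cluster 1, with Slc10a2 and Cubn among its leading genes, had 354 of 905 (39.1%) at 2.46 per 10000. Cluster 2, led by the tip genes Enpp3, Slc28a2, Nt5e and Ada, had 48 of 788 (6.09%) at 0.454 per 10000. The clusters highest in Fgf15 were not those highest in Slc10a2: Slc10a2 was at 8.83 per 10000 in cluster 1, 4.94 in cluster 8 and 2.83 in cluster 4, whereas Fabp6 was at 288, 512 and 525 per 10000.

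Among enterocyte-like cells, Fgf15-positive cells carried less of the villus tip programme. The villus tip list summed to 55.8 UMIs per 10000 in Fgf15-positive and 204 in Fgf15-negative enterocyte-like cells, a ratio of 0.273. Of its 7 measured genes 5 lay at least 2-fold lower, where 2.97% of 2797 measured genes did. Enpp3, an ectonucleotidase, was at a ratio of 0.0999, the nucleoside transporter Slc28a2 at 0.197, the adenosine-forming enzyme Nt5e at 0.213, the adenosine deaminase Ada at 0.219 and Apoa4 at 0.248. The villus bottom list was higher, at 114 against 49.9 per 10000, with 4 of 5 measured genes at least 2-fold higher, where 2.54% of all measured genes were. These 4 were the antimicrobial lectins Reg3b at 2.36 and Reg3g at 2.16, the inflammasome sensor Nlrp6 at 2.44 and the chemokine Ccl25 at 2.32. Lypd8, the other measured gene, was at 1.82, and at 0.631 over all cells, where goblet and other cells also carry it. The list of the middle of the villus was near level, at a ratio of 1.19.

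Of the 15 highest ratios in enterocyte-like cells, 4 were also among the 15 highest over all cells, namely those of Gm42031, Fabp6, Cbr1 and Arg2. Gm42031 was at 2.83, the glutathione transferase Mgst1 at 2.78, Fabp6 at 2.68, Cbr1 at 2.60, Qdpr at 2.46, Angptl4 at 2.43, the lectin Reg3a at 2.42 and Arg2 at 2.39. Gpx2 and Mt1, which act against oxidants and metals, were at 2.26 each, the antibody transporter Pigr at 2.24 and H2-Eb1 at 2.20. Beside the tip genes, the lowest included Apol9a at 0.258, the transporter Slc23a4 at 0.266, the interferon gene Ifit1bl1 at 0.299 and the oxidase pair Duox2 and Duoxa2 at 0.301 and 0.330. The remaining low gene was 2010109I03Rik at 0.333. Haemoglobin genes were also among the lowest, with Hbb-bt at 0.0582, Hba-a1 at 0.109, Hba-a2 at 0.117 and Hbb-bs at 0.184, but 10 of the 2397 Fgf15-negative cells held 99.5% of the 25210 haemoglobin UMIs of that group, and 10 of the 1447 Fgf15-positive cells 97.2% of 2860. These ratios describe a few barcodes.

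Placing the enterocyte-like cells in 5 equal groups by their own level of the tip list, from tip group 1 (lowest) to tip group 5 (highest), showed a graded pattern. From tip group 1 to 5 the share of Fgf15-positive cells was 49.7%, 47.0%, 36.3%, 20.2% and 6.40%. The Fgf15 level was 5.32, 3.93, 2.63, 1.43 and 0.458 UMIs per 10000. Depth ran the other way, from a median of 5213 to 6866 UMIs, and with each cell thinned to 800 UMIs the share with Fgf15 was 30.0%, 27.2%, 18.9%, 9.49% and 2.54%. Among the Fgf15-positive cells alone the level was 9.25 Fgf15 UMIs per 10000 in tip group 1 and 3.69 in tip group 5. Their median depth was 5819 and 8650 UMIs in these groups. The floor of 2 Fgf15 UMIs per cell ties this level to depth, so it is a description only.

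Bile acid genes followed the same gradient with different slopes. Fabp6 was at 475 per 10000 in tip group 1 and 21.3 in tip group 5. Slc51a went from 15.4 to 2.32, Maf from 7.46 to 1.80 and Nr1h4 from 1.37 to 0.244. Slc10a2 was at 7.02, 7.70, 4.66, 2.84 and 1.36, so its highest level was in tip group 2. Slc51b was the flattest, from 8.26 to 4.16. Cd74, the invariant chain of MHC class II, had no such gradient and stayed between 5.78 and 6.94.

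**Figure D3:**
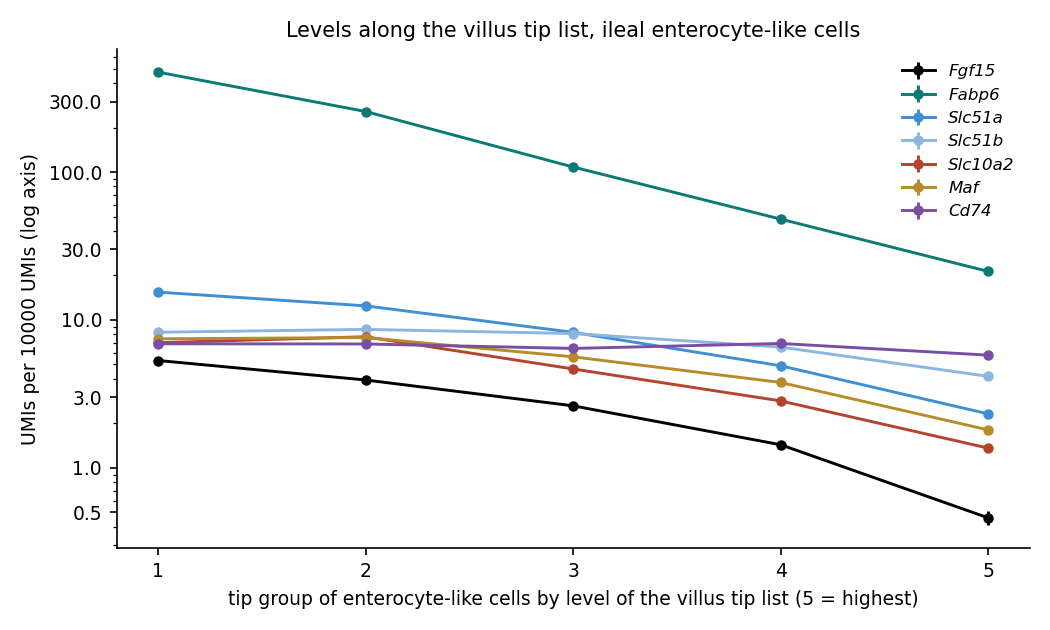
Levels of Fgf15, bile acid genes, Maf and Cd74 in UMIs per 10000 UMIs (log axis) over 5 equal groups of ileal enterocyte-like cells by their level of the villus tip list, where group 5 is highest, with 95% Poisson intervals mostly smaller than the points. Fgf15 runs from 5.32 to 0.458 and Fabp6 from 475 to 21.3, while Cd74 stays near level.

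With villus position held equal by tip group, most differences shrank below 2-fold. Position was read from the tip list alone and was not measured in the tissue. The Fgf15-negative enterocyte-like cells were weighted so that each tip group had the share of UMIs it had in Fgf15-positive cells. This held position equal only in part: after it the tip list was still at a ratio of 0.869 and the villus bottom list at 1.26. Fabp6 was then at a ratio of 1.39, Slc51b at 1.37, Slc51a at 1.30 and Maf at 1.29, and Slc10a2 at 0.954. Only 4 genes of 2750 lay at least 2-fold higher, and all 4 were MHC class II genes: H2-Aa at 2.68, Cd74 at 2.52, H2-Eb1 at 2.35 and H2-Ab1 at 2.33. The 5 at least 2-fold lower were the haemoglobin genes Hbb-bt, Hba-a1, Hba-a2 and Hbb-bs and the cornified envelope gene Sprr1a at 0.437. With depth held equal as well, the same 4 genes were at 2.81 to 3.36, and 8 genes lay at least 2-fold lower, among them Rsad2, Ifit1 and Ifit1bl1, genes of the interferon response, at 0.347 to 0.487.

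Inside each tip group, the pairs showed where the differences lay. Fabp6 was higher in Fgf15-positive cells in 5 of 5 groups, at 502 against 423 per 10000 in group 1 and 91.8 against 13.7 in group 5. Slc51a, Slc51b and Maf were also higher in 5 of 5. Slc10a2 was lower in group 1, at 6.11 against 8.83 per 10000, and higher in the other 4. Cd74 was higher in 5 of 5, at 10.0 against 2.59 per 10000 in group 1, 9.60 against 3.54 in group 2, 8.65 against 4.06 in group 3, 9.23 against 5.88 in group 4 and 9.94 against 5.19 in group 5. The level in Fgf15-positive cells was thus near the same in all 5 groups, and that of Fgf15-negative cells was lowest where Fgf15 was commonest.

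**Figure D4:**
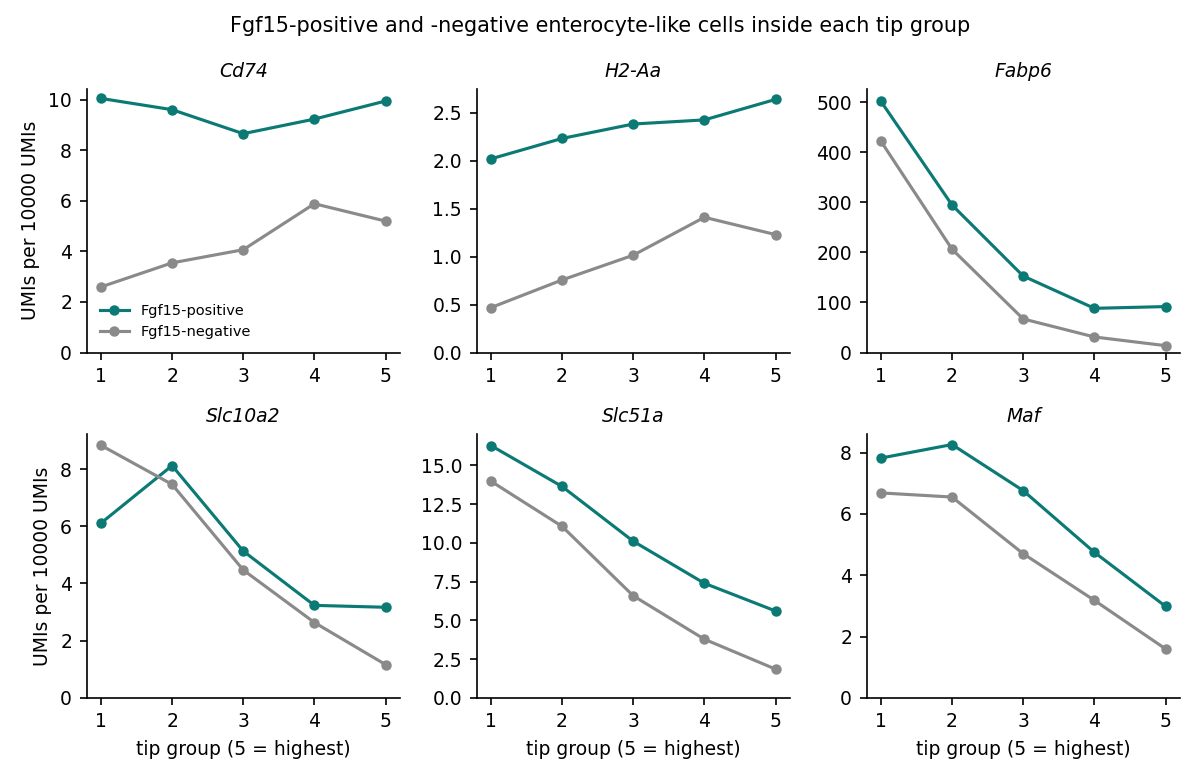
Levels of 6 genes in Fgf15-positive (teal) and Fgf15-negative (grey) enterocyte-like cells inside each of 5 groups by the villus tip list, in UMIs per 10000 UMIs, each panel from 0. Cd74 and H2-Aa are higher in Fgf15-positive cells in all 5 groups, and the Slc10a2 lines cross between groups 1 and 2.

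The MHC class II genes present antigen to T cells and are carried by B cells and myeloid cells as well as by ileal enterocytes. Over all cells 3 of 4 measured members lay at least 2-fold higher, where 2.02% of all measured genes did, and the summed list was at a ratio of 2.15. H2-DMa and Ciita, the loading factor and the master regulator of the group, were under the minimum level, at ratios of 2.55 and 2.02. The summed list was higher with more Fgf15. It was at 7.01 UMIs per 10000 in cells without Fgf15 and 8.68 with 1 UMI. With 2 UMIs it was at 11.1, with 3 to 9 at 14.1 and with 10 or more at 19.4. Between the first and last of these groups median depth went from 6249 to 10113 UMIs and the goblet list from 567 to 40.9 per 10000. The bile acid transport list went from 126 to 453 and the tip list from 126 to 20.7. The part of depth and cell mix was not tested. Thinned to 800 UMIs, Cd74 was found in 41.3% of Fgf15-positive and 24.6% of Fgf15-negative enterocyte-like cells, in 5.56% of goblet-like cells and in 32.9% of Ptprc-positive barcodes. In enterocyte-like Fgf15-positive cells an MHC class II UMI was found in 81.2% of cells, and the 145 cells of 1447 with most of them held 49.5% of the UMIs. Over all Fgf15-positive cells the B and plasma cell list held 1317 UMIs, among them 751 of Igkc, 34 of Cd79a and 12 of Ms4a1. The myeloid list held 2250 UMIs, among them 3 each of Itgax and Csf1r. The rule had removed barcodes with a Ptprc UMI, so low counts of leukocyte genes are partly set by it. The B and plasma cell and myeloid lists summed to 0.832 against 0.877 and 1.07 against 0.864 per 10000 in enterocyte-like cells.

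By cluster, MHC class II lay in 2 enterocyte-like clusters. Cd74 was at 25.6 per 10000 in cluster 8 and 21.0 in cluster 0, at 9.92 in cluster 4 and at 1.66 to 2.46 in the other 4. Cluster 0, with 31.8% Fgf15-positive cells, was less rich in Fabp6, at 116 per 10000 against 512 in cluster 8. When Fgf15-negative cells were weighted to the clusters of the Fgf15-positive cells, the MHC class II list was at a ratio of 1.35, and 0 genes lay at least 2-fold higher. Since the animals were pooled, a difference between cells of different mice or stretches of the ileum cannot be told apart from a difference between cells of 1 mouse.

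Within Fgf15-positive cells the genes did not all move with the Fgf15 level. From group 1 to group 4 by Fgf15 per 10000 UMIs, Fabp6 went from 260 to 303, 364 and 489 per 10000 and the MHC class II list from 7.85 to 14.6, 20.6 and 28.3. Slc51a went from 12.6 to 13.8 and Slc51b from 8.78 to 8.65, which is near level. Slc10a2 ran the other way, at 5.94, 5.04, 4.39 and 3.84. The tip list went from 51.1 to 20.5 per 10000. Of group 4, 42.7% lay in the cluster led by Gm26917, against 4.36% of group 1. These groups differ in depth by the way they are made, and the part of depth was not tested.

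The few jejunal cells with Fgf15 allowed a comparison in a library the rule had not been written for. Since only 41 cells passed, the 96 jejunal cells with at least 1 Fgf15 UMI were set against the 3906 with none, at median depths of 12456 and 12183 UMIs. Of the 58 genes higher in the ileum, 50 were measured in the jejunum and 45 of these lay above 1, where 59.6% of all measured jejunal genes did. At least 2-fold higher were 9 of the 50, where 1.88% of 2659 were. Of the 128 lower genes, 63 were measured and 55 lay at least 2-fold lower, where 4.14% did, many of them genes of goblet and plasma cells. The jejunal goblet list summed to 8.69 per 10000 with Fgf15 and 135 without, so the other cell types enter here too.

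**Figure D5:**
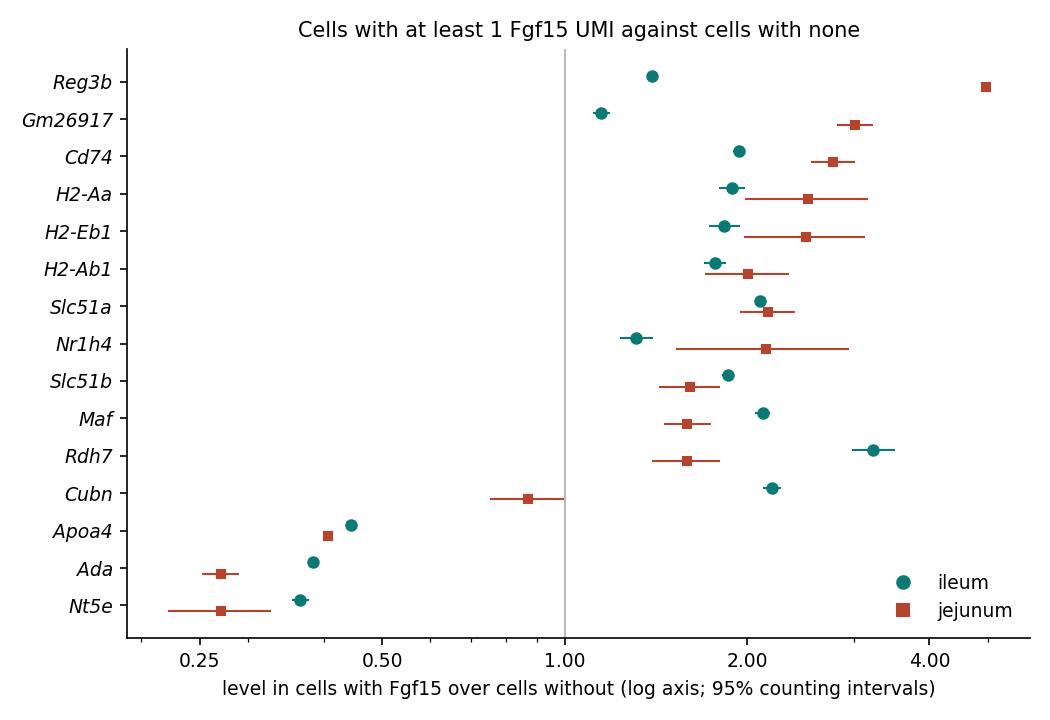
Ratio of levels in cells with at least 1 Fgf15 UMI over cells with none, on a log axis with 95% counting intervals, for the ileum (teal circles) and the jejunum (red squares). Cd74 and Slc51a lie above 1 and Ada and Nt5e below it in both, while Cubn lies above 1 in the ileum alone.

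Named genes showed which parts were common to both segments. MHC class II was higher with Fgf15 in the jejunum, where Cd74 was at 4.23 against 1.52 per 10000, a ratio of 2.78 (2.55 to 3.01), H2-Aa at 2.52, H2-Eb1 at 2.50 and H2-Ab1 at 2.01. Slc51a was at a ratio of 2.17 (1.95 to 2.40), Nr1h4 at 2.15 (1.53 to 2.94), Slc51b at 1.61 and Maf at 1.59. Nr0b2 was at 0.902 (0.386 to 1.80), with 8 UMIs in cells with Fgf15 and 330 in cells without. Ada and Nt5e were at 0.271 each and Apoa4 at 0.406, and the villus bottom list was at 360 against 79.3 per 10000. The uptake genes were near 0 in both groups: Slc10a2 had 4 UMIs in the 96 cells and 149 in the cells without Fgf15, a ratio of levels of 0.999 (0.269 to 2.61). Fabp6 had 4 and 15 UMIs, or 0.0273 and 0.00276 per 10000, a ratio of 9.92 (2.40 to 31.1). Cubn was at 0.871 (0.754 to 1.00) and Gm26917 at 3.01 (2.81 to 3.22). In the ileum with the same threshold Cubn was at 2.20 and Gm26917 at 1.15, and whether the segments differ was not tested.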

How the data were processed

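Single IECs and intraepithelial immune cells of the duodenum, jejunum and ileum were sequenced as 1 10x Genomics library each. The authors aligned and counted reads with Cell Ranger 3.0.2 against GRCm38 (mm10), and deposited raw UMI counts for 31053 genes in each barcode. From these counts, levels were computed as summed UMIs per 10000 UMIs with exact Poisson intervals, ratios with exact conditional binomial intervals and shares with exact Clopper-Pearson intervals, all at 95%. Fgf15 was left out of the gene comparison. Named genes were the listed bile acid, FGF receptor and nuclear RNA genes and the 15 highest and 15 lowest ratios among genes with at least 1 UMI per 10000, of which 1 is not reported here. The members and lists were chosen with earlier results of these data known, and the promoter pair was shown after 3 site-like letter strings had been tried.

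Cells were clustered without Fgf15 on 2000 variable genes, 30 principal components and 20 neighbours (Leiden at resolution 0.8, leidenalg 0.10.2, scanpy 1.11.5). A cluster was enterocyte-like where that list had the highest mean relative level, at least 3 markers were found in 10% of cells, and no other list held 2 of its 10 leading genes. Scrublet marked 147 of 8113 ileal barcodes (1.81%) as doublets, 14 of them Fgf15-positive, and these were kept except in an alternative. Thinning used 800 UMIs per cell. Python 3.11.15, numpy 2.4.6, pandas 2.3.3 and scipy 1.17.1 were used, and the ratio code was tested on simulated data.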

Additional observations from a re-analysis of the deposited data

How the results depend on the processing

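No paired analysis was possible because each segment gave 1 library. The 58 genes at least 2-fold higher became 71 in enterocyte-like cells, 29 with at least 1 Fgf15 UMI, 96 with at least 5, 350 with no minimum level beyond 10 UMIs and 280 at a fold of 1.5. Chosen after seeing the data, weighting to clusters left 0, weighting to the 5 tip groups 4, also with depth 4, and leaving the cluster led by Gm26917 out of the enterocyte-like cells gave 101. The 128 lower genes became 83 in enterocyte-like cells, 2676 with no minimum, 226 at a fold of 1.5, and 5, 5 and 8 under the same 3 weightings. The villus bottom ratio of 1.48 was 2.28 in enterocyte-like cells and 1.31 with depth held equal, the middle ratio of 1.48 was 1.19 and 1.55, and the tip ratio of 0.350 was 0.273 and 0.397. Slc10a2 was found in 75.8% of Fgf15-positive and 47.8% of Fgf15-negative cells as counted and in 46.3% and 29.9% at 2000 UMIs, and Fabp6 in 99.9% and 99.2% and in 98.5% and 86.3%. Enterocyte-like clusters held 84.7% of Fgf15-positive cells at resolution 0.4 and 92.9% at 1.2. With at most 20% mitochondrial UMIs Fgf15 was at 2.28 per 10000 in the ileum and 0.0190 in the jejunum. The cause of these moves was not tested. Of 37 genes recomputed under 18 alternatives, those at least 2-fold apart kept their direction. Depth limits the Fgf15-negative group, which can include cells whose Fgf15 was not counted.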

Other observations

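Immediate early and heat shock genes were lower in Fgf15-positive cells over all cells, at 38.1 against 48.2 summed UMIs per 10000. Of 9 measured genes 1 lay above 1, with a median ratio of 0.752, and 1 lay at least 2-fold lower, Fosb at 0.416. In enterocyte-like cells the list summed to 35.9 and 39.0, 5 of 9 lay above 1 and Fosb was at 0.893. Of 5 measured genes in the list of nuclear and ribosomal RNA, 1 lay above 1, where 56.5% of all measured genes did. That gene was Gm26917, at 1.19. The nuclear RNAs Malat1 and Neat1 were lower, at 200 against 316 and 10.0 against 17.1 per 10000. Along the tip list Malat1 went from 184 in tip group 1 to 582 in tip group 5. The ribosomal RNA genes Gm42418 and AY036118 were at ratios of 0.982 and 0.863, and Gm42418 turned to 1.17 with depth held equal. Of the mitochondrial genes 12 of 12 measured lay above 1, where 56.5% of all measured genes did, with none at least 2-fold higher and a summed ratio of 1.25, which turned to 0.935 with villus position and 0.949 with clusters held equal.

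Slc5a1, the glucose cotransporter, was at 5.84 against 3.27 per 10000, and its ratio lay between 1.09 and 1.90 in 18 alternatives. Slc2a2 and Slc2a5, transporters of glucose and fructose, were under the minimum level at ratios of 4.01 and 2.94, and in the jejunum at 0.984 and 0.939 with at least 1 Fgf15 UMI. The M cell list was near level, at 1.76 against 1.81 per 10000, the T cell list at 0.387 against 1.18, the myeloid list at 1.28 against 1.44 and the stroma and endothelium list at 0.288 against 0.459. The tuft, stem and cycling lists were at 0.199 against 0.791, 0.549 against 2.68 and 0.746 against 1.97, and the EEC list at 0.299 against 2.22.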
